A study of Mus musculus with 10 samples.

Results

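Fc receptors bind the constant end of antibodies and let leukocytes respond to what an antibody has caught. In mouse the activating receptors for IgG (Fc gamma receptors) and the high-affinity IgE receptor depend on a small adaptor, Fcer1g (the Fc receptor gamma chain). Fcer1g and Tyrobp (DAP12), an adaptor of other myeloid and NK cell receptors, carry an immunoreceptor tyrosine-based activation motif (ITAM). Src family kinases such as Lyn phosphorylate the motif, Syk docks on it, and Btk and Plcg2 carry the signal on to calcium, while Fcgr2b carries an inhibitory motif (ITIM) and restrains the same cascade. In skin these genes are best known from macrophages, mast cells, neutrophils and dendritic cells.

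The genes described here are 10 rows of a table of 19703 protein-coding genes, chosen by symbol: the adaptors Fcer1g and Tyrobp, the Fc gamma receptors Fcgr1, Fcgr2b, Fcgr3 and Fcgr4, and the signalling genes Lyn, Syk, Btk and Plcg2. Expression was measured by RNA-seq in left ear skin of mice painted with MC903 (calcipotriol, a vitamin D analogue that provokes itch and inflammation resembling atopic dermatitis). After 7 daily applications MC903 was applied once more on day 8, and mice then received 100 µl by gavage, either vehicle (5 libraries) or 5 mg/kg GSK1562590, which blocks the receptor for urotensin II (5 libraries). Per the labels, skin was taken on day 13. The sources used here give no strain, sex or age. Both groups carry MC903, and ethanol-painted right ears were not analysed here. The labels do not say that each library came from a separate mouse, so p-values speak for the spread among these libraries alone, which may be technical. Library totals ranged from 20183024 to 20606007 expected counts. Keratinocyte markers were abundant in all libraries, at a summed 19840 to 33800 CPM (counts scaled to library size) in vehicle and 21050 to 29160 CPM in antagonist libraries, and 0 of 6 were called.

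Fcgr2b, Fcgr4, Fcgr3 and Fcer1g are neighbours on chromosome 1 (build GRCm38), within 274 kb from the start of Fcgr2b at 170960558 to the end of Fcer1g at 171234349. Fcgr4 lies at 171018926 to 171029761 and Fcgr3 at 171051169 to 171065915 between them. Fcgr1 lies apart on chromosome 3, from 96282909 to 96293969. The other genes are on chromosomes 7 (Tyrobp), 4 (Lyn), 13 (Syk), X (Btk) and 8 (Plcg2). The 80 bases before a RefSeq start of each Fc gamma receptor gene are shown because a short word is found there in the activating receptors, for Fcgr3 before only 1 of its 2 starts, and not in the inhibitory receptor. The sequences are from RefSeq (GRCm38.p6), on the strand of the gene. Capitals mark CTTCCTCT, the reverse complement of AGAGGAAG, a word built on GAGGAA, the core that the myeloid factor PU.1 is known to prefer.
Fcgr1, chr3:96293970-96294049, minus strand: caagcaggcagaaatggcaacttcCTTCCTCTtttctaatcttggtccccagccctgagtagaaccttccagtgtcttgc
Fcgr3, chr1:171059395-171059474, minus strand: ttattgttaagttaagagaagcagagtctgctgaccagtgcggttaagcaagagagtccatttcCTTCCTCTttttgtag
Fcgr4, chr1:171018846-171018925, plus strand: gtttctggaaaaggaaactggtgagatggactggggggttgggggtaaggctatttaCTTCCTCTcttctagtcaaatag
Fcgr2b, chr1:170976072-170976151, minus strand: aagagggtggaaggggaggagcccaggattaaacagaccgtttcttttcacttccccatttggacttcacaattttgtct
The word ended 49 bases before the start of Fcgr1, 9 bases before the downstream start of Fcgr3 and 16 bases before that of Fcgr4. The starts of Fcgr3 lie 9 bases apart, and the word reaches across the upstream one, so the window before that start does not hold it whole. The starts of Fcgr3 and Fcgr2b shown lie inside the gene spans given above, and the windows before the outer ends of those spans were not searched. Within 250 bases before the start, on either strand, AGAGGAAG was found in 3.67% of 32851 windows over all genes, each start counted by itself. It was found in 3 of the 8 members with an entry, Fcgr1, Fcgr3 and Fcgr4. A member counted if any of its starts had the word, so the share of windows and the count of members are unlike measures. The shorter GAGGAA, which AGAGGAAG contains, was found in 23.3% of all windows and in the same genes and Syk. Tyrobp and Lyn had no entry. The longer word was chosen after the sequences were read, and a match describes letters only. Other forms of a PU.1 site were not searched, so a stretch without the word may still hold one.

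The question put to these genes was whether their levels in inflamed ear skin differed between antagonist and vehicle libraries. Among the members 7 were lower in antagonist ears: both adaptors, Fcgr2b, Fcgr3, Lyn, Syk and Btk. In this fit the lowest fold change was that of the inhibitory receptor Fcgr2b, from 383 ± 99.7 to 191 ± 38.9 CPM (SD, n = 5), and the smallest called fall was that of Lyn, from 91.4 ± 18.9 to 64.8 ± 3.77 CPM. Fcgr1, Fcgr4 and Plcg2 had lower means in antagonist ears but did not pass the test. By edgeR's quasi-likelihood test, adjusted by Benjamini-Hochberg over all 15174 tested genes, 7 of 10 members had an adjusted p under 0.05, all 7 lower, against 34.1% of all tested genes called in either direction, 17.4% called lower and 16.7% called higher. The median log2 fold change was −0.60 over the 10 members and −0.0002 over all tested genes. In 3 members, Tyrobp, Fcgr2b and Syk, every antagonist library lay below every vehicle library, as in 10.8% of all tested genes. Whole ear skin cannot show whether there were fewer cells that carry these genes or less of their RNA per cell.

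**Figure D1:**
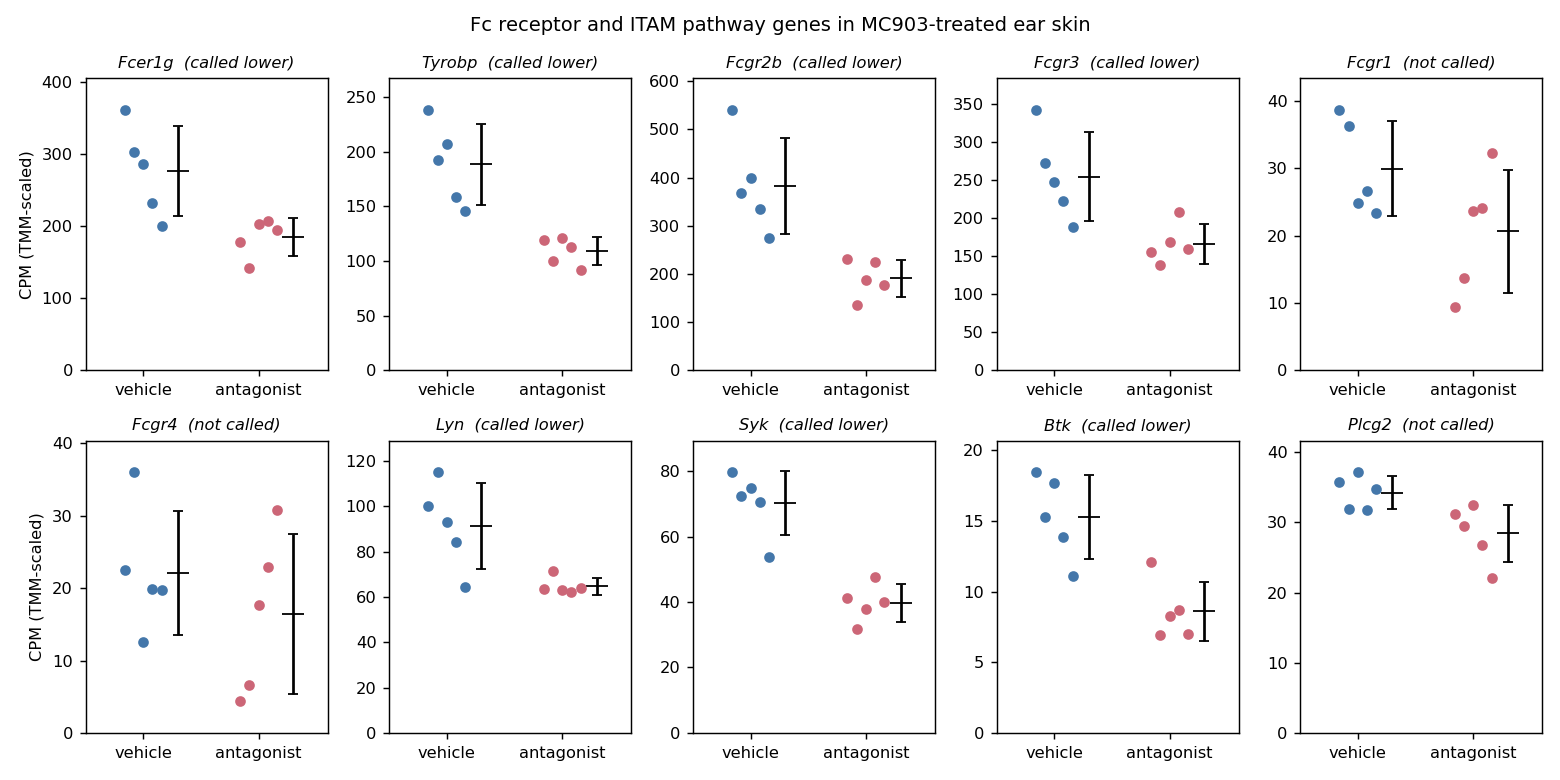
Each panel plots 1 gene, with CPM (TMM-scaled) from 0 on the vertical axis, 1 point per library, ordered by replicate number within its group, and the mean with its SD (n = 5) beside them. Tyrobp, Fcgr2b and Syk show groups that do not overlap. Fcgr1 and Fcgr4 show the widest antagonist spread relative to their means, from 9.42 to 32.4 CPM and from 4.45 to 30.8 CPM.

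Cartilage markers, which an ear can hold, moved with the groups in part, and this touches every call below. Of 10 tested cartilage markers 6 were lower and 0 higher. The 4 that did not pass were Cytl1 (mean 2142 CPM with vehicle and 2578 CPM with antagonist), Chad (377 and 327), Acan (263 and 238) and Sox9 (44.4 and 37.1). The mean log2 CPM of the tested markers, which weighs scarce and abundant genes alike, went from 6.12 ± 0.37 with vehicle to 4.70 ± 0.68 with antagonist (SD, n = 5). The summed level of the listed markers ranged from 2724 to 3337 CPM in vehicle and from 2296 to 4177 CPM in antagonist libraries, and 0 of 11 listed markers were at 0 in all libraries. The score lay at 5.69 to 6.54 in vehicle libraries and at 3.86 to 5.59 in antagonist libraries, without overlap. Score and group therefore cannot be told apart, and the part of cartilage in the calls was not tested. With this score as a covariate in edgeR, 0 members and 0 genes at all were called (1898 of all genes had an unadjusted p under 0.05). All 10 members kept a negative sign, with log2 fold changes from −1.69 for Fcgr4 to −0.024 for Plcg2. The values of Fcgr4, Plcg2, Fcgr1 (−1.39), Btk (−0.54) and Lyn (−0.75) moved by more than 1.5 times. With any 1 library left out, 7 or 8 members were called lower.

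The adaptors were the most abundant members per unit length. In deposited TPM (a unit that allows for gene length), the vehicle order was Fcer1g at 757 ± 162, Tyrobp at 596 ± 105, Fcgr2b at 469 ± 111 and Fcgr3 at 325 ± 70.2 (SD, n = 5), and each lay above the next in all 5 vehicle libraries. A wide gap separated them from Lyn at 48.2 ± 10.8 TPM. Fcgr4 (31.1 ± 13.0), Syk (22.9 ± 3.11) and Fcgr1 (19.7 ± 4.74) followed, and each lay above the next in 4 of 5 vehicle libraries, so their order was not firm. Plcg2 at 13.4 ± 0.345 and Btk at 10.2 ± 1.78 TPM closed the order.

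Fcer1g, the adaptor of the activating Fc gamma receptors and of the high-affinity IgE receptor, stood at 200.5, 233, 286, 303 and 361.5 CPM in vehicle libraries and at 141, 178, 195, 203 and 206.5 CPM in antagonist libraries. The groups overlapped only through vehicle replicate 12, which lay below antagonist replicates 7 and 8. Its log2 fold change was −0.58 ± 0.16 (SE; adjusted p = 0.0157 by edgeR). Tyrobp, the adaptor of TREM and many other myeloid and NK cell receptors, stood at 146, 159, 193, 207 and 238.5 CPM in vehicle and at 91.3, 100.2, 113, 119 and 121 CPM in antagonist libraries. Here the groups did not overlap. The log2 fold change was −0.79 ± 0.13 (SE; adjusted p = 0.0022 by edgeR), or 1.73 times lower.

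The inhibitory receptor Fcgr2b had the lowest fold change of the members, though not with the cartilage covariate (−0.82, against −1.69 for Fcgr4, −1.39 for Fcgr1 and −0.85 for Syk). Fcgr2b recruits a lipid phosphatase, encoded by Inpp5d, that opposes ITAM signalling. It stood at 274, 334, 368, 400 and 541 CPM in vehicle libraries and at 134.5, 177, 188, 224.5 and 230.0 CPM in antagonist libraries. All antagonist libraries were below all vehicle libraries, and the log2 fold change was −1.01 ± 0.19 (SE; adjusted p = 0.00313 by edgeR), or 2.01 times lower. Inpp5d itself, named after its value was seen, fell from 67.05 ± 6.98 to 51.6 ± 7.61 CPM (log2 fold change −0.38 ± 0.11, SE; edgeR adjusted p = 0.0196), a call lost without vehicle replicate 3 or antagonist replicate 6.

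Of the activating receptors Fcgr3 fell and Fcgr1 and Fcgr4 varied too much to pass. Fcgr3, the low-affinity IgG receptor of mast cells, macrophages and NK cells, stood at 188, 222, 247, 271 and 342 CPM in vehicle and at 139, 156, 159, 169 and 208 CPM in antagonist libraries. Only vehicle replicate 12 and antagonist replicate 8 overlapped, and the log2 fold change was −0.61 ± 0.15 (SE; adjusted p = 0.0118 by edgeR). Fcgr1, the high-affinity IgG receptor of monocytes and macrophages, stood at 23.4, 24.8, 26.6, 36.3 and 38.7 CPM in vehicle and at 9.42, 13.7, 23.6, 24.1 and 32.4 CPM in antagonist libraries (log2 fold change −0.54 ± 0.29, SE; edgeR adjusted p = 0.168). Antagonist replicates 4 and 6 lay below all vehicle libraries, and the other antagonist libraries lay among them. Fcgr4, a receptor for IgG2a and IgG2b, stood at 12.6, 19.7, 19.9, 22.5 and 35.98 CPM in vehicle and at 4.45, 6.64, 17.6, 22.9 and 30.8 CPM in antagonist libraries. Its groups overlapped broadly, with replicate 4 the lowest and replicate 10 the highest of the antagonist libraries, and the log2 fold change was −0.43 ± 0.46 (SE; adjusted p = 0.498 by edgeR).

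Fcgr2b and Fcgr3 are close copies, and the authors' counting split reads between them. Their expected counts were not whole numbers in all 10 libraries, while the sum of both was whole in all 10 (within 0.01), and the counts of Fcgr1 and Fcgr4 were whole throughout. In GENCODE transcripts Fcgr3 shared 44 of its 1627 windows of 100 bases, or 2.70%, with Fcgr2b and 0 with Fcgr1 or Fcgr4. Counted together, an alternative chosen after the data were seen, Fcgr2b and Fcgr3 went from 637 to 357 CPM, with a log2 fold change of −0.84 ± 0.17 (SE; adjusted p = 0.0043 by edgeR). The separate values of both genes carry this uncertainty.

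The balance of activating to inhibitory receptor was compared as a ratio within each library, so that a change shared by both genes cancels. The Fcgr3 to Fcgr2b ratio of CPM was 0.618, 0.632, 0.663, 0.688 and 0.737 in vehicle libraries and 0.676, 0.896, 0.9005, 0.927 and 1.03 in antagonist libraries. All but antagonist replicate 4 lay above every vehicle library. The mean log2 ratio went from −0.59 ± 0.10 to −0.19 ± 0.23 (SD, n = 5), a difference of 0.40 (exact two-sided permutation p = 0.0238 over 252 assignments, 0.0714 adjusted over the 3 ratios), which did not pass the threshold of 0.05. Without antagonist replicate 4 the difference was 0.49 and the adjusted exact p 0.0238. The log2 ratio of Fcgr1 to Fcgr2b differed by 0.36 (adjusted exact permutation p = 0.571), and by 0.68 without antagonist replicate 4 (adjusted exact p = 0.0238). That of Fcgr4 differed by 0.31 (adjusted exact permutation p = 0.619) and by −0.017 without antagonist replicate 10. The smallest p that 5 libraries against 5 allow is 0.00794.

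**Figure D2:**
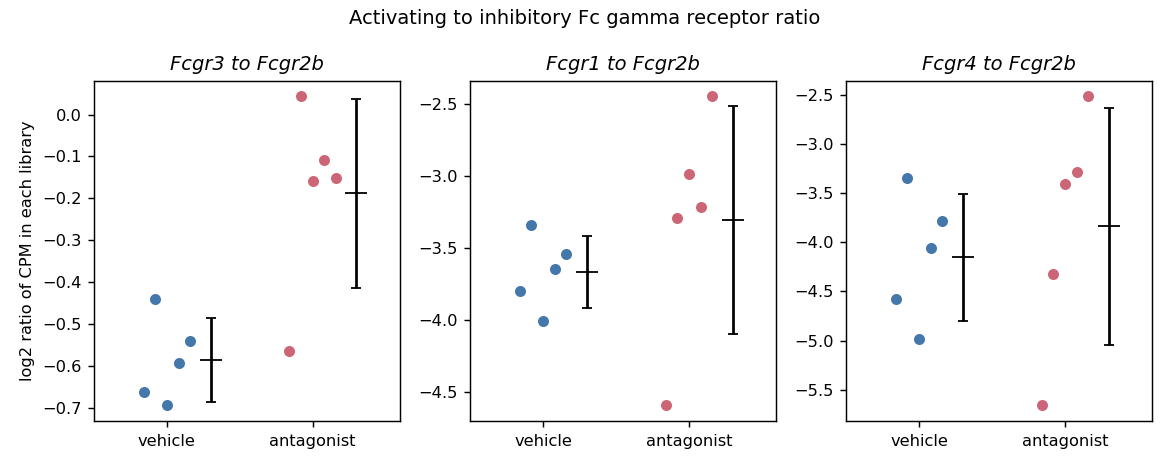
Each panel plots the log2 ratio of CPM of 1 activating receptor to Fcgr2b in each library (points) with the group mean and SD (n = 5), on an axis of its own. In the Fcgr3 panel 4 of 5 antagonist libraries lie above all vehicle libraries, and antagonist replicate 4 is the lowest antagonist library in all panels.

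The kinases fell and their phospholipase did not pass. Lyn, the Src family kinase that starts ITAM and ITIM phosphorylation, stood at 64.3, 84.2, 93.2, 100.1 and 115 CPM in vehicle and at 62.0, 63.0, 63.6, 64.1 and 71.4 CPM in antagonist libraries. The antagonist libraries lay close together, and replicate 6 was the one that lay above a vehicle library, replicate 12; the log2 fold change was −0.50 ± 0.13 (SE; adjusted p = 0.0129 by edgeR). Syk, which docks on phosphorylated ITAMs, stood at 53.8, 70.5, 72.3, 74.7 and 79.6 CPM in vehicle and at 31.9, 37.9, 40.1, 41.1 and 47.8 CPM in antagonist libraries. Its groups did not overlap, and its adjusted p was the smallest of the members (log2 fold change −0.82 ± 0.12, SE; edgeR adjusted p = 0.00138).

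Btk, the Tec family kinase that activates phospholipase C gamma, stood at 11.1, 13.8, 15.3, 17.7 and 18.4 CPM in vehicle and at 6.94, 6.99, 8.25, 8.71 and 12.1 CPM in antagonist libraries. Antagonist replicate 4 was above vehicle replicate 12 and the other antagonist libraries were below all vehicle libraries (log2 fold change −0.83 ± 0.18, SE; edgeR adjusted p = 0.00598). Plcg2, the phospholipase C of B cells and myeloid cells, stood at 31.7, 31.9, 34.8, 35.7 and 37.1 CPM in vehicle and at 22.1, 26.8, 29.4, 31.2 and 32.5 CPM in antagonist libraries. One antagonist library, replicate 7, lay above the lowest vehicle libraries. The log2 fold change of −0.27 ± 0.10 (SE) had an adjusted p of 0.0572 by edgeR, 0.0483 by DESeq2 and, in the authors' deposited table, 0.0548. By limma-trend on filtered TPM Plcg2 also passed, with an adjusted p of 0.044 (pseudocount 1) and 0.043 (pseudocount 0.1). It did not pass by limma-trend on unfiltered TPM or by limma-voom, so the call depended on the method. Without antagonist replicate 4 or 7 it passed by edgeR, with an adjusted p of 0.045 and 0.0383. The authors' deposited table gave the same direction for all 10 members, from a log2 fold change of −1.002 for Fcgr2b to −0.27 for Plcg2.

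The high-affinity IgE receptor shares Fcer1g, and its other chains are given beside it. Its alpha chain Fcer1a, which binds IgE and is named here after its value was seen, stood at 16.3, 22.7, 33.6, 40.3 and 40.8 CPM in vehicle and at 27.9, 31.9, 38.2, 39.5 and 40.2 CPM in antagonist libraries (log2 fold change 0.21 ± 0.23, SE; edgeR adjusted p = 0.502). Its beta chain Ms4a2 stood at 16.6, 20.9, 25.9, 28.9 and 30.8 CPM in vehicle and at 6.20, 9.68, 13.0, 14.5 and 20.8 CPM in antagonist libraries, and fell by 0.94 ± 0.28 on the log2 scale (SE; adjusted p = 0.0237 by edgeR). The Ms4a2 call was lost without vehicle replicate 3, vehicle replicate 10 or antagonist replicate 6 (adjusted p up to 0.0612), and the difference between both chains was not tested. Mast cell and basophil markers moved with the beta chain in part: 4 of 9 tested were lower and 1 higher, with a summed level of 853 to 1435 CPM in vehicle and 715 to 1112 CPM in antagonist libraries and 0 of 9 at 0 in all libraries. Kit, the mast cell growth factor receptor, was at 31.8 ± 4.37 and 29.0 ± 4.47 CPM (adjusted p = 0.418 by edgeR).

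Of 11 tested other Fc receptor genes 4 fell and 0 rose. Beside Ms4a2 these were Fcrls, an Fc receptor-like gene known from microglia and macrophages, with a log2 fold change of −2.73 ± 0.58 (SE), Fcrla, an Fc receptor-like gene of B cells, with −2.17 ± 0.43, and Fcgrt, the neonatal Fc receptor that recycles IgG, with −0.42 ± 0.14 (named after its value was seen). The Fcgrt call was lost without any of vehicle replicates 3, 10 and 11 and antagonist replicates 6, 7 and 10 (adjusted p up to 0.0982), with the skeletal muscle covariate (adjusted p = 0.0534) and by limma-trend on unfiltered TPM (adjusted p = 0.0537). The count of falls was 2 without vehicle replicate 3, vehicle replicate 10 or antagonist replicate 6. Pigr, Fcrl1 and Fcrl6 of this list were too low to test. Their means were 0.11, 0.304 and 0.078 CPM with vehicle and 0.31, 0.325 and 0.0099 CPM with antagonist. Of 12 listed genes of antibody chains and their joining chain, only the joining chain gene Jchain was in the table, and it was too low to test. The genes of the antibody chains, which would supply the ligands, had no rows, so their levels could not be read.

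Of 15 tested receptors that signal through Fcer1g or Tyrobp 14 fell and 0 rose, with a median log2 fold change of −1.30. Oscar, Gp6 and Ncr1 were too low to test. Their means were 0.196, 0.067 and 0.314 CPM with vehicle and 0.648, 0.069 and 0.030 CPM with antagonist. Trem1, an amplifier of myeloid inflammation, stood at 18.1, 23.8, 24.9, 29.3 and 29.9 CPM in vehicle and at 3.37, 4.09, 5.67, 8.12 and 8.56 CPM in antagonist libraries (log2 fold change −2.08 ± 0.25, SE; edgeR adjusted p = 0.000731). Clec4n, a fungal pattern receptor also called dectin-2, had a log2 fold change of −1.30 ± 0.19 and Klrk1, the NKG2D receptor of NK and T cells, of −1.96 ± 0.30. The gene that did not pass was Trem2, a lipid-sensing receptor of macrophages, at 25.9 ± 4.64 and 26.3 ± 3.95 CPM (log2 fold change 0.020 ± 0.14, SE; edgeR adjusted p = 0.926; named after its value was seen).

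ITAM chains of lymphocytes fell in all 5 tested genes, among them the T cell receptor chains Cd3d (log2 fold change −1.30 ± 0.24, SE), Cd3g (−1.20 ± 0.24) and Cd247 (−0.64 ± 0.11), the zeta chain. T cell markers moved with them, and their part in these falls was not tested: 3 of 5 tested were lower and 0 higher, with a median log2 fold change of −1.48, a summed level of 50.8 to 91.5 CPM in vehicle and 12.2 to 31.3 CPM in antagonist libraries, and 0 at 0 in all libraries. Of the lymphocyte chains, Cd79a of B cells was too low to test and went the other way. Its mean was 0.167 CPM with vehicle and 0.543 CPM with antagonist, with all antagonist libraries above all vehicle libraries. ITIM-bearing receptors fell in 13 of 15 and rose in 0, with a median of −0.80. Lilrb4a, an inhibitory receptor of myeloid and mast cells, fell from 202.5 ± 39.45 to 106 ± 20.6 CPM (SD, n = 5), and the B cell coreceptors Cd22 and Cd72 had log2 fold changes of −1.08 ± 0.20 and −1.0015 ± 0.20. The inhibitory receptor genes fell alongside the activating ones, and the difference between both lists was not tested.

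**Figure D3:**
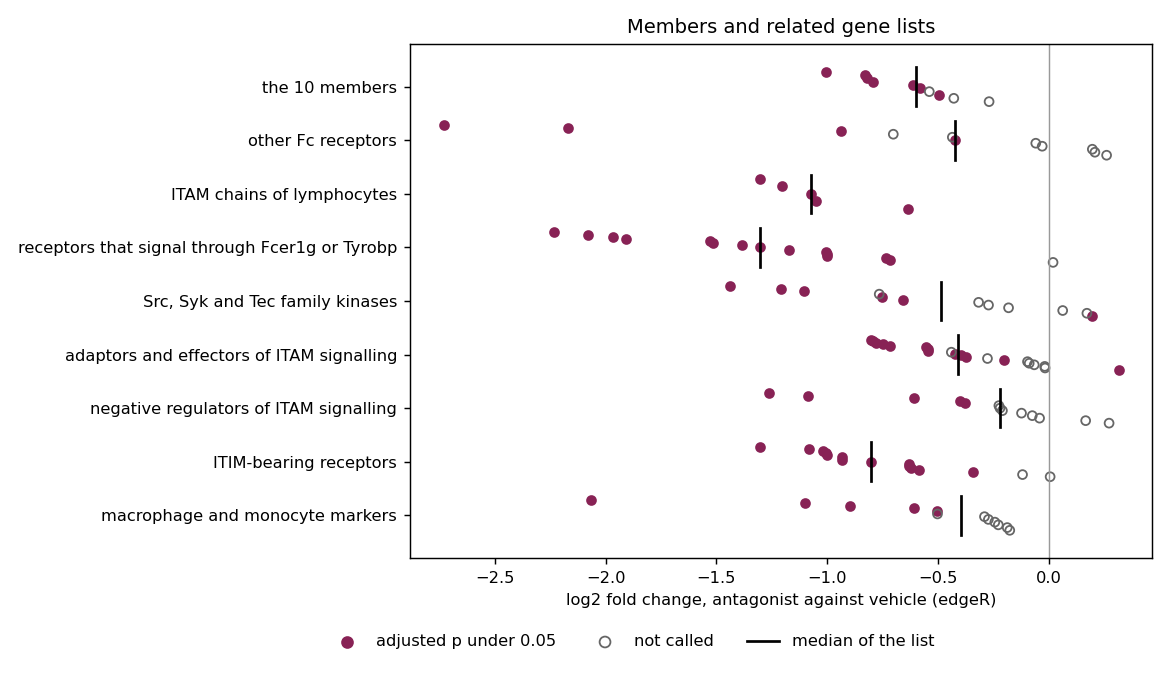
Each point is 1 tested gene, placed by its log2 fold change of antagonist against vehicle from edgeR. Filled points have an adjusted p under 0.05, and a bar marks each list's median. Receptors that signal through Fcer1g or Tyrobp have the lowest median of the lists plotted, −1.30, beside −0.60 for the 10 members.

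Of 12 other Src, Syk and Tec family kinases 5 fell and 1 rose. Lck, the kinase that starts T cell receptor signalling, fell by 0.75 ± 0.17 (SE) on the log2 scale. The riser was Yes1, a broadly expressed Src family kinase, from 27.1 ± 1.07 to 31.1 ± 2.29 CPM (log2 fold change 0.20 ± 0.064, SE; edgeR adjusted p = 0.033). The Yes1 call held without vehicle replicate 12, antagonist replicate 4 or antagonist replicate 7 and was lost without any of the other libraries (adjusted p up to 0.077). It was also lost in all 3 limma-trend fits on TPM (adjusted p 0.0855 to 0.105). The count of falls was 3 without vehicle replicate 9 or antagonist replicate 6. Adaptors and effectors of ITAM signalling fell in 12 of 20 and rose in 1. The falls included Bcl10, which links ITAM receptors to NF-kappa B (−0.37 ± 0.050), the adaptor Lat2 (−0.72 ± 0.13) and the PI3 kinase adaptor Pik3ap1 (−0.79 ± 0.14). The riser was Plcg1, the phospholipase C of most tissues and of T cells, from 40.7 ± 3.06 to 50.7 ± 3.03 CPM (log2 fold change 0.32 ± 0.067, SE; edgeR adjusted p = 0.0055). Negative regulators fell in 5 of 13 and rose in 0, with Dok1 at −0.61 ± 0.078, Dok2 at −1.09 ± 0.20 and the phosphatase Ubash3b at −0.40 ± 0.081.

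Leukocyte markers moved with these genes, and their part in the results was not tested. The ratios to Ptprc given further below describe the members beside 1 marker and do not test it. Ptprc (CD45, carried by all leukocytes) fell from 93.0 ± 17.0 to 40.4 ± 8.25 CPM (log2 fold change −1.20 ± 0.15, SE; edgeR adjusted p = 0.000874), Csf3r, a neutrophil receptor, by 1.92 ± 0.21 on the log2 scale, Adgre1, a macrophage receptor, by 0.90 ± 0.20 and Csf1r by 0.51 ± 0.15. The Csf1r call was lost without vehicle replicate 3, antagonist replicate 6 or antagonist replicate 10 (adjusted p up to 0.0616). Of 12 macrophage and monocyte markers 5 were lower and 0 higher, with a summed level of 3209 to 5331 CPM in vehicle and 2618 to 3841 CPM in antagonist libraries and 0 at 0 in all libraries. The count was 3 without vehicle replicate 3 or antagonist replicate 10 and 8 without vehicle replicate 12. Neutrophil markers were lower in 3 of 5 tested and higher in 0 (summed 152 to 283 and 95.0 to 194 CPM). Eosinophil markers were lower in 4 of 4 tested, and in 2 without vehicle replicate 3 or 11 or antagonist replicate 8 or 10 (summed 6.14 to 15.9 and 2.40 to 5.16 CPM), dendritic and Langerhans cell markers in 4 of 8 tested (66.6 to 80.4 and 24.6 to 39.8 CPM) and fibroblast markers in 5 of 6 (7095 to 12110 and 3054 to 4999 CPM), with 0 higher in each. The NK cell marker Klrb1c was scarce at 1.55 ± 0.447 and 0.673 ± 0.343 CPM, and it lost its call without vehicle replicate 12 or antagonist replicate 6.

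Set against Ptprc within each library, every member was higher in antagonist ears, and 6 of 10 ratios passed. The log2 fold change of Ptprc (−1.20) was lower than that of every member (−1.01 to −0.27). The direction of the ratios therefore followed from values already given, and the ratios do not measure the share of leukocytes. The log2 ratio of Fcer1g to Ptprc went from 1.56 ± 0.18 to 2.20 ± 0.18 (SD, n = 5), a difference of 0.64, with all antagonist libraries above all vehicle libraries (exact two-sided permutation p = 0.00794, 0.0159 adjusted over 10 ratios). Fcgr3 differed by 0.61, Syk by 0.39, Plcg2 by 0.93 and Lyn by 0.74, with the same exact p values, and Tyrobp by 0.43 (adjusted exact p = 0.0397). Fcgr2b, the member nearest to Ptprc, differed by 0.21 (adjusted exact permutation p = 0.109), and Btk, Fcgr1 and Fcgr4 by 0.38, 0.57 and 0.53 (adjusted exact permutation p = 0.0907, 0.141 and 0.381). The Tyrobp ratio lost its call without any of vehicle replicates 3, 9, 11 and 12 and antagonist replicates 4, 6 and 7. Fcgr2b (0.28) and Btk (0.48) passed without vehicle replicate 10, Btk (0.46) also without antagonist replicate 8, and Fcgr1 (0.85) without antagonist replicate 4. These values rest on Ptprc as the reference. Against the mean of the other pan-leukocyte markers, Coro1a, Laptm5 and Itgb2, none of the 10 passed, and Tyrobp, Fcgr2b, Syk and Btk turned to negative differences, while Coro1a itself had a log2 fold change of −1.38 and Itgb2 of −0.16. Against the macrophage and monocyte markers none passed either, with differences from −0.39 for Fcgr2b to 0.33 for Plcg2.

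Within the groups the members did not all vary together. Deviations of log2 CPM from the group mean were correlated over the 10 libraries as a description; the points share library and normalization. Fcer1g, Tyrobp, Fcgr2b, Fcgr3, Syk and Btk had Pearson r of 0.57 to 0.93 with each other in 15 pairs. Fcgr1 and Fcgr4 had an r of 0.94 with each other, the highest of all 45 pairs, but Fcgr4 had an r of 0.054 with Fcgr2b and −0.16 with Tyrobp. Plcg2 had r from −0.66 (with Fcgr4) to 0.55 (with Tyrobp). Vehicle replicate 3 was the highest vehicle library in 7 of 10 members and vehicle replicate 12 the lowest in 8 of 10.

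**Figure D4:**
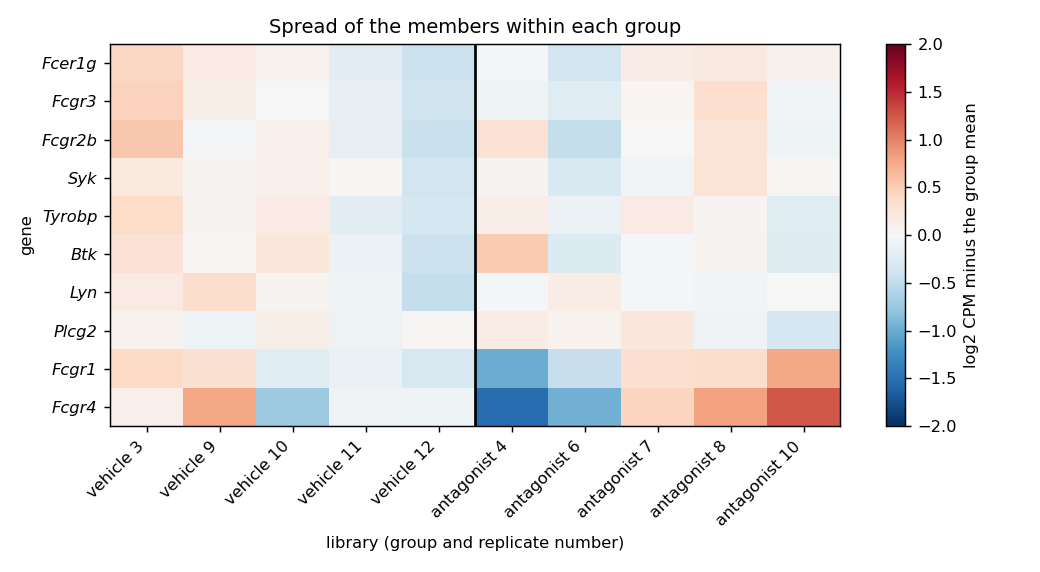
Each cell is the log2 CPM of 1 gene in 1 library minus the mean of its group, on a colour scale from −2 to 2, with genes in rows and libraries in columns. Fcgr1 and Fcgr4 are lowest in antagonist replicate 4 and highest in antagonist replicate 10, a pattern that the rows of Fcer1g, Fcgr2b and Fcgr3 lack.

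By the same measure, and with genes of a mean log2 CPM under 1 left out, the 5 genes most like Fcer1g were C6 (r = 0.96), Ms4a6b (0.95), Ifnar2 (0.95), Batf (0.95) and Sting1 (0.94). Of these Ms4a6b, Ifnar2, Batf and Sting1 fell, with log2 fold changes from −0.94 for Sting1 to −0.26 for Ifnar2, and C6 did not pass (adjusted p = 0.271 by edgeR). Those most like Fcgr2b were Tlr8 (r = 0.98), Ms4a4a (0.98), Asah1 (0.96), P2ry12 (0.95) and Hfe (0.95). All 5 fell, with log2 fold changes from −0.89 for P2ry12 to −0.35 for Asah1. The calls of Ms4a6b, Ifnar2 and Ms4a4a were lost without vehicle replicate 3 or antagonist replicate 6, and those of Ms4a6b and Ms4a4a also without vehicle replicate 9, vehicle replicate 10 or antagonist replicate 10. Ms4a4a also lost its call without antagonist replicate 7.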

How the data were processed

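RNA-seq of 10 ear skin libraries was used. Per the labels, mRNA was selected with oligo(dT) beads, and no step that marks the strand is named. The aligner was HISAT (version not given), per the submitters' processing notes. The counting tool and its annotation are unnamed in these sources. Reads of a gene and an antisense partner cannot be told apart. Per the file headers, the authors deposited expected counts (estimated counts, here partly not whole), TPM, FPKM and group means, and a DESeq2 comparison with log2 fold changes, p-values and q-values. FPKM and group means were not used. All per-library columns were matched by sample title (0 unmatched). An empty line was skipped. Of 18930 genes matched by ID to GENCODE M21 (GRCm38), 18912 overlapped their reference gene. The table gives the plus strand for Fcgr2b and Btk, and GENCODE the minus strand, which was used.

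Counts were rounded, filtered with filterByExpr (15174 genes kept, all 10 members among them), scaled by TMM (factors 0.972 to 1.04) and compared with edgeR 4.0.16 (R 4.3.3), group as the single term. SE was taken as |log2 fold change| / √F. Log2 CPM carried a prior count of 2. CPM are counts divided by the TMM-scaled library size. The code was tested on simulated data. The squared difference between any 2 libraries was at least 21.4 times sampling noise, so none was treated as a copy. The labels give no batch. Ratios were compared by exact two-sided permutation.

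The members and lists were chosen with earlier results of these data known. Genes named beyond the members were the 3 with the smallest p of each pathway list, the first called against its direction, 7 markers, and the 5 most like Fcer1g and Fcgr2b; some of these are not reported here. Alternatives were RLE and upper-quartile factors, other filters, DESeq2 1.42.0, limma 3.58.1 (voom with sample weights, and trend on TPM with pseudocounts of 1 and 0.1), robust estimation, cartilage and muscle scores as covariates, and each library left out.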

Additional observations from a re-analysis of the deposited data

Results flagged for a closer look

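Lyn in antagonist replicate 6, at 71.4 CPM, stood apart from the other antagonist libraries, which lay between 62.0 and 64.1 CPM. Its gap to the nearest was 0.783 of the group's range, against a limit of 0.71 for 5 samples. It was 1 of 26 groups of values checked, and chance marks about 5% of groups.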

How the results depend on the processing

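No paired analysis was possible because the groups share only replicate number 10. With the cartilage covariate 0 genes were called in total, 0 higher, 0 lower and 0 members, and the 7 called members had adjusted p of 0.19 (Syk) to 0.473 (Btk); each of the 7 pathway lists with tested genes had 0 called; the cause was not tested. The other counts of members were 7 or 8, the eighth being Plcg2. With 1 library left out, all calls ranged from 3850 to 5641, higher ones from 1880 to 2776 and lower ones from 1966 to 2865; other Fc receptors had 2 to 4 and kinases 3 to 6 falls. The Fcgr1 to Fcgr2b ratio differed by 0.15 to 0.68, Fcgr3 by 0.34 to 0.49 and Fcgr4 by −0.017 to 0.77. Ratios to Ptprc ranged from 0.35 to 0.51 for Tyrobp, 0.35 to 0.85 for Fcgr1, 0.15 to 0.28 for Fcgr2b and 0.28 to 0.48 for Btk. With the other pan-leukocyte markers as reference the differences were 0.16 (Fcer1g), −0.057 (Tyrobp), −0.28 (Fcgr2b), 0.12 (Fcgr3), −0.099 (Syk), −0.11 (Btk), 0.44 (Plcg2) and 0.25 (Lyn). With macrophage and monocyte markers they were 0.045 (Fcer1g), −0.17 (Tyrobp), −0.026 (Fcgr1), −0.39 (Fcgr2b), 0.012 (Fcgr3), −0.073 (Fcgr4), −0.21 (Syk), −0.22 (Btk), 0.33 (Plcg2) and 0.14 (Lyn). Prior counts, TPM and the summed Fcgr2b and Fcgr3 changed no call of a ratio. Over 222 alternative values of single members 0 changed sign. For 50 other tested genes chosen to be named, an addition made after the data were seen, 1006 alternatives kept the call and sign, 83 lost the call and 11 changed sign, all 11 in genes that were not called. With the cartilage covariate Kit turned to 0.081 and Trem2 to −0.068. With 1 library left out Trem2 ranged from −0.071 to 0.098, Tgtp1 from −0.71 to 0.27 and Gm4951 from −0.69 to 0.17.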

Other observations

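The genes most like Fcgr4 by group-centred correlation over the 10 libraries, a search made after its values were seen, were Tgtp1 (r = 0.99), Gm4951 (0.99), Serpina3g (0.99), Gbp5 (0.98) and Tgtp2 (0.98). Tgtp1, Tgtp2 and Gbp5 are known as interferon-inducible GTPases of mouse. Gbp5 stood at 11.7, 19.1, 19.2, 25.7 and 42.2 CPM in vehicle libraries and at 4.69, 7.33, 17.2, 21.7 and 43.7 CPM in antagonist libraries. As for Fcgr4, antagonist replicate 4 was lowest, antagonist replicate 10 was highest of its group, and vehicle replicate 9 was the highest and vehicle replicate 10 the lowest of theirs. None of these 5 genes was called between the groups, with adjusted p from 0.122 for Serpina3g to 0.846 for Tgtp1 by edgeR.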
